A study of Mus musculus with 12 samples.

Results

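The interferon-stimulated genes described here are 9 genes that interferons switch on in most cell types: Ifit1, Ifit2, Ifit3, Oasl2, Rsad2, Isg15, Usp18, Irf1 and Irf7. They were taken by symbol, and each was read from the probe set with the highest mean signal among those annotated to that gene alone. The set was chosen with earlier results of these data known, so its counts beside shares of all genes are a description. Of the 9, 8 had such a probe set and passed the filter on low signal, so 8 of the 11345 genes tested were members. The only probe set of Isg15 is also annotated to Gm9706 and is given apart. The RNA came from skeletal muscle of 12 mice of 16 weeks, with 3 mice in each of 4 groups. By the labels, the groups were wild type on normal diet (WT ND), wild type on high fat diet (WT HFD), GPR120KO on normal diet (KO ND) and GPR120KO on high fat diet (KO HFD). All 4 groups shared the mixed 129/Sv and C57BL/6 background strain. GPR120, the product of Ffar4, senses long-chain fatty acids at the cell surface. The sources used here give neither the knockout allele, nor the sex of the mice, nor which muscle was taken. In the sample titles each group has its own run of mouse numbers, and all high fat diet numbers lie below all normal diet numbers. The labels name no cohorts or batches, so group and cohort cannot be told apart.

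Each value is a deposited log2 signal of a 1-colour Affymetrix array, so a difference of 1 is a doubling of signal, and the 3 arrays per group limit the precision. A gene was tested where its mean log2 signal passed 3.78, the median of all probe sets. Array medians lay between 3.87 and 4.17. Ffar4 could not check the labels: its signal passed 3.78 on 1 of the 12 arrays, a KO ND array, and its group means were 0.23 ± 1.86 in WT ND, 1.41 ± 0.93 in WT HFD, 2.48 ± 1.89 in KO ND and 2.31 ± 1.18 in KO HFD (SD, n = 3). The tissue label was checked against 10 muscle markers, all of which passed the filter, with mean log2 signals of 12.72 to 13.97.

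Interferons are secreted proteins, and cells release those of type I on sensing foreign or misplaced nucleic acid. Type I interferons signal through the receptor Ifnar1 and Ifnar2 and the kinases Jak1 and Tyk2, and their targets carry the interferon-stimulated response element (ISRE). Interferon gamma signals through Ifngr1 and Ifngr2, and many of its targets carry the gamma-activated site (GAS). In muscle, these genes are best known from inflammatory muscle disease and from infection.

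To show what the members carry ahead of their start sites, the 250 bases before each start were searched on both strands for the ISRE letters GAAANNGAAA, whose reverse complement is TTTCNNTTTC, and for the GAS letters TTCNNNGAA. RefSeq promoters on GRCm38.p6 were matched for 8 of the 9 members, 10 promoters in all, with none for Usp18. An ISRE match was present in 4 of the 8 genes, against 3.46% of all 27025 genes with a promoter, and a GAS match in 2 of the 8, against 8.13%. The matched windows of 30 bases are given 5′ to 3′ on the strand of the gene, with the matched letters in capitals:
Ifit1, ISRE, chr19:34640785-34640814, plus strand: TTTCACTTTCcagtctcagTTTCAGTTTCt
Ifit3, ISRE, chr19:34583363-34583392, plus strand: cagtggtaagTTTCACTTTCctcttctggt
Ifit3, ISRE, chr19:34583397-34583426, plus strand: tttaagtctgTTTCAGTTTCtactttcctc
Isg15, ISRE, chr4:156200871-156200900, minus strand: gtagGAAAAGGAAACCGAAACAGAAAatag
Rsad2, ISRE, chr12:26456553-26456582, minus strand: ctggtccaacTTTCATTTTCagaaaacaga
Irf1, GAS, chr11:53769914-53769943, plus strand: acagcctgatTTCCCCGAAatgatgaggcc
Ifit2, GAS, chr19:34550444-34550473, plus strand: catgggagcTTCCTGGAAgaatggataaaa

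Ifit1 held 2 ISRE matches, starting 104 and 85 bases before the start site, and Ifit3 held 2, at 156 and 122 bases. Isg15 held 3 matches that overlap one another, at 78, 72 and 66 bases, and Rsad2 held 1 at 120 bases. The GAS match of Irf1 lay 90 bases and that of Ifit2 241 bases before the start, each in 1 of the 2 promoters listed for the gene. These letters were not found in the windows of Oasl2 and Irf7. Of the other type I interferon-stimulated genes listed below, 8 of 27 with a promoter held the ISRE letters, as did 12 of 20 interferon gamma targets and 0 of 8 muscle markers. A match of letters is a description of the window and not a measured binding site.

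Averaged over both genotypes, 5 of the 8 tested members were called higher in muscle of mice on the high fat diet, against 7.49% of all genes tested. Ifit1 rose by 2.04-fold, Ifit2 by 1.81-fold, Rsad2 by 1.57-fold and Irf1 by 1.37-fold. The fifth, Oasl2, passed the filter only through its signal on high fat diet (mean 4.67, against 3.56 on normal diet), so its call and fold are a description; of the other 7 members, 4 were called. Ifit3, Usp18 and Irf7 did not pass the test, and 0 of the 8 were called lower, against 6.19% of all genes. The median log2 difference of the 8 was 0.75, and 0.66 without Oasl2, against 0.06 over all genes. The 3′ over 5′ signal ratio of control probe sets, a measure of RNA quality, was higher on high fat diet. With this ratio as a covariate, 0 of the 8 were called. Over all 11345 genes that fit called 237 higher and 285 lower, in place of 850 and 702. The log2 differences in that fit were 1.12 for Ifit1, 0.95 for Ifit2, 0.71 for Rsad2 and 0.45 for Irf1. Without the covariate they were 1.03, 0.85, 0.65 and 0.45. In these whole-muscle samples, fewer cells of a type and less RNA per cell cannot be told apart.

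**Figure D1:**
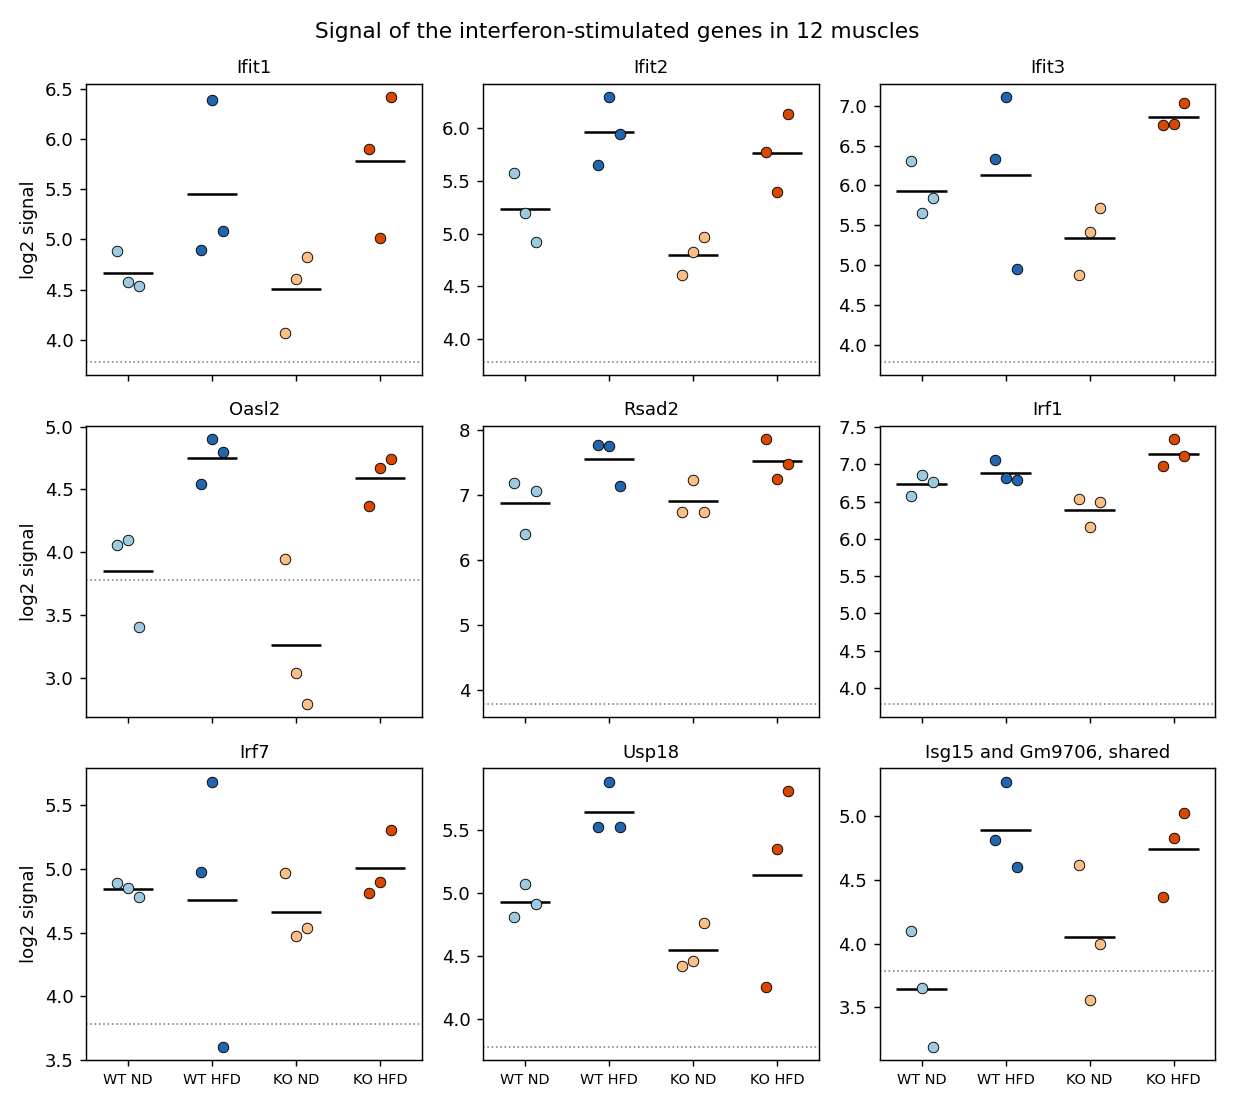
Log2 signal (y axis) of 8 interferon-stimulated genes and of the probe set shared by Isg15 and Gm9706 in each of 12 mice, by group (x axis); points are mice, bars are group means and the dotted line is the filter at 3.78. In the Oasl2 panel the 6 mice on high fat diet lie at 4.37 to 4.90, above the 6 on normal diet at 2.79 to 4.10. Oasl2 passed the filter only through its signal on high fat diet.

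The Ifit family encodes cytoplasmic proteins that bind viral RNA and hold back its translation. The 3 members measured here lie together on chromosome 19. Log2 signal of Ifit1, whose product binds RNA lacking the host cap methylation, was 4.89, 4.57 and 4.53 in WT ND, 4.90, 6.39 and 5.08 in WT HFD, 4.07, 4.61 and 4.83 in KO ND, and 5.90, 5.01 and 6.42 in KO HFD. Every mouse on high fat diet was above every mouse on normal diet, the closest pair being 4.90 and 4.89, and WT HFD replicate 2 and KO HFD replicates 1 and 3 stood well above the others. The averaged log2 difference of Ifit1 was 1.03 (SE 0.29, adjusted p = 0.0337, limma). In WT alone it was 0.79 (SE 0.41, adjusted p = 0.274) and in KO alone 1.27 (SE 0.41, adjusted p = 0.0985).

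Ifit2, a partner of Ifit1 and Ifit3 in the same complexes, had log2 signals of 5.57, 5.20 and 4.92 in WT ND and 5.65, 6.30 and 5.95 in WT HFD. Its signals were 4.61, 4.83 and 4.97 in KO ND and 5.77, 5.40 and 6.13 in KO HFD. The diets did not overlap within either genotype, and all 3 KO ND mice were below every high fat diet mouse. Ifit2 rose in the average (log2 difference 0.85, SE 0.18, adjusted p = 0.00831, limma) and in KO (0.97, SE 0.26, adjusted p = 0.0489). In WT its difference was 0.74 (SE 0.26, adjusted p = 0.105).

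Ifit3, which stabilises Ifit1 on RNA, had log2 signals of 6.31, 5.65 and 5.84 in WT ND, 6.33, 7.11 and 4.94 in WT HFD, 4.87, 5.42 and 5.72 in KO ND, and 6.76, 6.77 and 7.04 in KO HFD. The 3 KO HFD mice were close together and above all KO ND mice. The WT HFD mice spread over the whole range of WT ND and beyond it in both directions, with replicate 3 the lowest. The log2 difference of Ifit3 was 1.52 in KO (SE 0.41, adjusted p = 0.0538, limma), 0.20 in WT (SE 0.41, adjusted p = 0.831) and 0.86 in the average (SE 0.29, adjusted p = 0.0683). None of the 3 passed 0.05; without WT HFD replicate 3 the difference was called in KO (adjusted p = 0.00806) and in the average (1.15, adjusted p = 0.00333), and without WT HFD replicate 2 it was called in KO (adjusted p = 0.0218).

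Oasl2, an antiviral protein related to the 2′-5′ oligoadenylate synthetases, had log2 signals of 4.05, 4.10 and 3.41 in WT ND and 4.55, 4.90 and 4.80 in WT HFD. Its signals were 3.95, 3.04 and 2.79 in KO ND and 4.37, 4.67 and 4.74 in KO HFD. All 6 mice on high fat diet were above all 6 on normal diet, and the filter of 3.78 was passed on 2 of 3 WT ND and 1 of 3 KO ND arrays. The averaged log2 difference of Oasl2 was 1.11 (SE 0.27, adjusted p = 0.0161, limma), measured against a normal diet level below the filter. Its differences were 0.89 in WT (SE 0.38, adjusted p = 0.182) and 1.33 in KO (SE 0.38, adjusted p = 0.0643). Without KO ND replicate 1, the highest of that group, the KO difference was 1.68 and passed the test (adjusted p = 0.0465).

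Rsad2 encodes viperin, an enzyme that makes a nucleotide which stops viral RNA synthesis. Its log2 signals were 7.19, 6.40 and 7.05 in WT ND, 7.76, 7.75 and 7.13 in WT HFD, 6.74, 7.22 and 6.73 in KO ND, and 7.85, 7.24 and 7.48 in KO HFD. The diets did not overlap in KO, where the closest mice of the 2 diets were 7.22 and 7.24, and overlapped in WT, where a high fat diet mouse at 7.13 lay below a normal diet mouse at 7.19. Rsad2 rose in the average (log2 difference 0.65, SE 0.17, adjusted p = 0.0247, limma), with differences of 0.67 in WT (SE 0.24, adjusted p = 0.118) and 0.63 in KO (SE 0.24, adjusted p = 0.166). Of 2 dimmer probe sets of Rsad2, tested among all 22518 probe sets, of which 5.26% were called higher, 1 rose in the average (0.95, SE 0.28, adjusted p = 0.0472) and the other did not pass (0.43, SE 0.27, adjusted p = 0.349).

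Irf1 and Irf7 are transcription factors of the interferon regulatory family: Irf1 is a direct target of interferon gamma signalling, and Irf7 amplifies the production of type I interferon. Log2 signal of Irf1 was 6.58, 6.86 and 6.76 in WT ND, 7.06, 6.81 and 6.79 in WT HFD, 6.53, 6.15 and 6.49 in KO ND, and 6.98, 7.34 and 7.12 in KO HFD. All 3 KO ND mice were below all 9 others, and the 2 WT groups overlapped. Irf1 rose with the diet in KO (log2 difference 0.75, SE 0.16, adjusted p = 0.0198, limma) and in the average (0.45, SE 0.11, adjusted p = 0.0171). In WT its difference was 0.15 (SE 0.16, adjusted p = 0.610).

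Log2 signal of Irf7 was 4.89, 4.85 and 4.78 in WT ND, 4.98, 5.69 and 3.60 in WT HFD, 4.97, 4.47 and 4.54 in KO ND, and 4.81, 4.89 and 5.31 in KO HFD. All groups overlapped with at least 1 other, and WT HFD held both the highest and the lowest mouse. Irf7 did not pass in any comparison. Its diet difference was -0.08 in WT (95% interval -0.98 to 0.81), 0.35 in KO (-0.55 to 1.24) and 0.13 in the average (-0.50 to 0.76), and the sign turned in WT without WT HFD replicate 3 (0.49) and in the average without WT HFD replicate 2 (-0.10).

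Isg15 encodes a ubiquitin-like protein that is attached to other proteins, and Usp18 the protease that removes it and that also blocks the type I receptor. Log2 signal of Usp18 was 4.81, 5.07 and 4.91 in WT ND, 5.52, 5.89 and 5.53 in WT HFD, 4.42, 4.46 and 4.76 in KO ND, and 4.26, 5.36 and 5.81 in KO HFD. The 3 WT HFD mice were above all normal diet mice, the 3 KO ND mice were below all WT mice, and KO HFD replicate 1 was the lowest of the 12. The log2 difference of Usp18 was 0.72 in WT (SE 0.33, adjusted p = 0.217, limma), 0.59 in KO (SE 0.33, adjusted p = 0.346) and 0.66 in the average (SE 0.23, adjusted p = 0.0817). Without KO HFD replicate 1 the average was 0.88 and passed the test (adjusted p = 0.00688).

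The probe set annotated to both Isg15 and Gm9706 cannot be assigned to either gene. Its log2 signals were 4.10, 3.65 and 3.19 in WT ND, 4.81, 5.27 and 4.60 in WT HFD, 4.61, 3.55 and 3.99 in KO ND, and 4.37, 4.83 and 5.02 in KO HFD. The WT diets did not overlap, and the KO diets did. Tested among all probe sets, it rose in the average (log2 difference 0.97, SE 0.26, adjusted p = 0.0322, limma), with 1.25 in WT (SE 0.37, adjusted p = 0.0720) and 0.68 in KO (SE 0.37, adjusted p = 0.363).

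**Figure D2:**
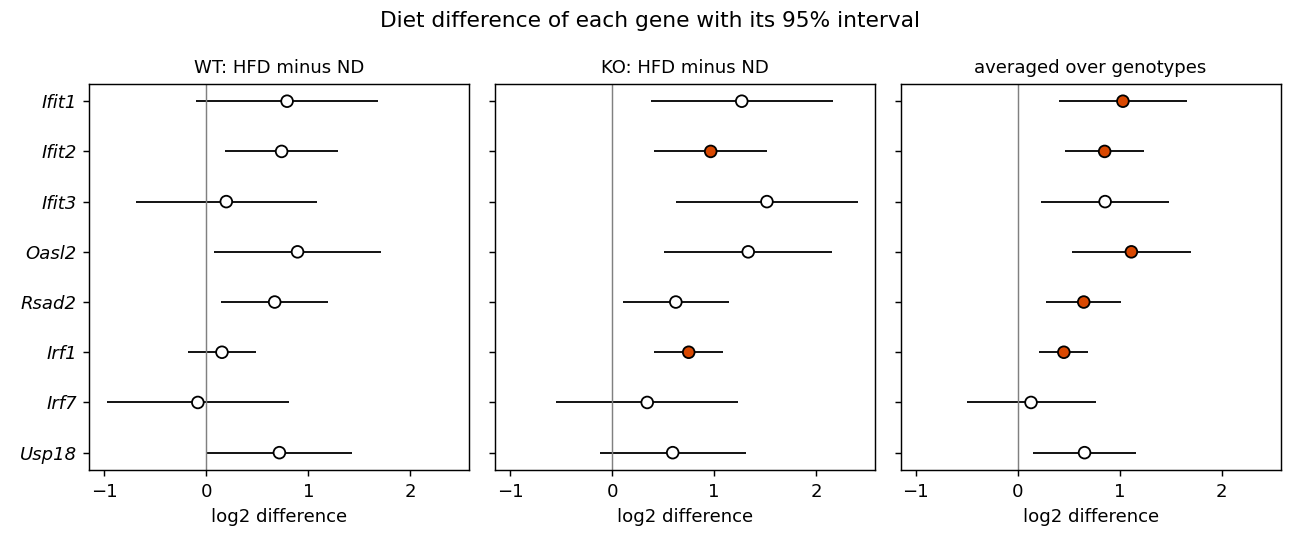
Log2 difference between diets (x axis) of 8 interferon-stimulated genes (y axis), in WT, in KO and averaged; lines are 95% intervals and filled points have an adjusted p under 0.05 over all genes. Filled points number 0 in WT, 2 in KO (Ifit2 and Irf1) and 5 in the average.

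Within each genotype alone, fewer members passed. In KO, 2 of 8 rose with the diet, Irf1 and Ifit2, against 2.66% of all genes called higher. An unadjusted p under 0.05 is a looser threshold, to which that share does not apply, and 6 members had one in KO. All 8 differences in KO were positive, with a median of 0.86 against 0.05 over all genes. In WT, 0 of 8 were called, against 3.07% of all genes called higher. There, 4 members (Ifit2, Oasl2, Usp18 and Rsad2) had an unadjusted p under 0.05, and the share of 3.07% does not apply to this count. In WT 7 of 8 differences were positive, with a median of 0.69 against 0.04. The diets did not overlap, with the high fat diet higher, for 6 of 8 members in KO, against 16.3% of all genes, and for 4 of 8 in WT, against 15.7%; Oasl2 is 1 in each of these counts. With 6 mice on each diet, the diets did not overlap for Ifit1 and Oasl2, against 2.58% of all genes. Oasl2, which passed the filter only through its signal on high fat diet, is also in the medians, the unadjusted counts and this overlap. The unadjusted counts here and below have no share of all genes beside them and are a description.

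The calls of the diet comparison depended on settings and on single mice. With the 3′ over 5′ ratio of the beta-actin and Gapdh controls as a covariate, 0 of 8 members passed in the average (Ifit2 0.95, adjusted p = 0.0616; Oasl2 1.29, adjusted p = 0.0833) and only Irf1 in KO (adjusted p = 0.0485); with each array centred on its median, 3 passed in the average and 0 in KO. That ratio was 0.18 ± 0.02 in WT HFD and 0.16 ± 0.13 in KO HFD, against -0.02 ± 0.09 in WT ND and 0.07 ± 0.06 in KO ND (log2, SD, n = 3), and its part in the result was not tested beyond this fit. In the average, Ifit2, Oasl2 and Irf1 were called with any 1 mouse left out. Ifit1 was lost without any 1 of WT ND replicates 2 and 3, WT HFD replicate 2, KO ND replicates 1 and 2 and KO HFD replicates 1 and 3 (adjusted p 0.0570 to 0.0871). Rsad2 was lost without any 1 of WT ND replicate 2, WT HFD replicates 1 and 2, KO ND replicates 1 and 3 and KO HFD replicate 1 (adjusted p 0.0535 to 0.0611). In KO, Irf1 was lost without KO ND replicate 2 or KO HFD replicates 2 or 3 (adjusted p 0.0625 to 0.0887). Ifit2 was lost in KO without any 1 of 8 mice, namely WT ND replicates 2 and 3, WT HFD replicate 3, all 3 of KO ND and KO HFD replicates 1 and 3 (adjusted p 0.0506 to 0.184).

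Between genotypes, no member passed the test on either diet. On normal diet, 7 of 8 members had a lower mean in KO, with a median log2 difference of -0.36 against 0.02 over all genes. Ifit3 and Oasl2 each differed by -0.60 (SE 0.41 and 0.38) and Irf1 by -0.34 (SE 0.16, adjusted p = 0.438, limma). Of the 8, 0 were called, against 0.414% of all genes. Irf1 alone had an unadjusted p under 0.05, a threshold to which that share does not apply. Irf1 and Usp18 did not overlap between the genotypes on normal diet, with KO lower, against 7.72% of all genes. On high fat diet, the differences ran from -0.50 for Usp18 to 0.73 for Ifit3, 4 of 8 were positive, and 0 of 8 were called against 0.732% of all genes, with 0 at an unadjusted p under 0.05. Averaged over the diets, 0 of 8 were called against 1.61% of all genes, also with 0 at an unadjusted p under 0.05. In that comparison Xaf1, an interferon-induced gene linked to cell death, was lower in KO (-0.69, SE 0.16, adjusted p = 0.0438), the 1 call among 27 other type I interferon-stimulated genes; that list kept 1 call without KO ND replicate 2 and had 0 without any 1 of the other 11 mice, with median centring and with the 3′ over 5′ covariate.

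The order of the 4 groups followed from these values. KO ND had the lowest mean of 7 members, and WT ND that of Rsad2. The highest mean fell to KO HFD for Ifit1, Ifit3, Irf1 and Irf7, and to WT HFD for Ifit2, Oasl2, Usp18 and Rsad2, and the ranges of the highest 2 groups overlapped for every member. By mouse, WT HFD replicate 2 held the highest value of 5 members, and KO ND replicate 1 the lowest of 3. WT HFD replicate 3 was among the 6 highest mice for 4 members, while the other two WT HFD mice were there for all 8.

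Whether the diet effect depended on genotype was tested as the KO difference minus the WT difference. No member passed, against 0.141% of all genes. Ifit3 and Irf1 had an unadjusted p under 0.05, a threshold to which that share does not apply. The interaction was 1.32 for Ifit3 (95% interval 0.07 to 2.58, adjusted p = 0.454, limma) and 0.60 for Irf1 (0.12 to 1.08, adjusted p = 0.369). For Rsad2 it was -0.04 with an interval of -0.78 to 0.69, and for Ifit1 0.48 with an interval of -0.78 to 1.74, so these data do not show that the genotypes responded alike. Leaving out WT HFD replicate 3 moved the interaction of Ifit3 to 0.73, and leaving out WT HFD replicate 2 moved it to 1.81.

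The wider pathway was read from lists of genes. Of 36 other type I interferon-stimulated genes, 27 were tested, and in the average 9 rose and 0 fell, against 7.49% and 6.19% of all genes, with a median of 0.29 against 0.06 over all genes. Dtx3l, a ubiquitin ligase that acts with Parp9, rose by 0.73 (SE 0.10, adjusted p = 0.000797, limma). Trim21, an antibody-binding ubiquitin ligase, rose by 0.72 (SE 0.15, adjusted p = 0.00687). Rtp4, a chaperone of receptors at the cell surface, rose by 1.02 (SE 0.21, adjusted p = 0.00754). Ifi27l2a, a small interferon-induced membrane protein, rose by 1.16 (SE 0.26, adjusted p = 0.0105). With the 3′ over 5′ covariate, 2 of the 27 were called in place of 9. Calls over all 11345 genes also dropped in that fit, to 237 higher and 285 lower from 850 and 702.

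By genotype, the same list had 6 of 27 members higher in KO, against 2.66% of all genes, with a median of 0.59, and 2 higher in WT, against 3.07%, with a median of 0.11. In KO, Ifi27l2a went from a log2 signal of 8.60 ± 0.78 in KO ND to 10.88 ± 0.44 in KO HFD (SD, n = 3), a difference of 2.28 (adjusted p = 0.00479, limma). In WT its means were 9.42 ± 0.33 and 9.47 ± 0.62, a difference of 0.05 (adjusted p = 0.953), and the interaction of 2.22 did not pass (SE 0.52, adjusted p = 0.147). Dtx3l rose in KO (0.88, adjusted p = 0.00493) and in WT (0.58, adjusted p = 0.0354). Rtp4 (1.35, adjusted p = 0.0265) and Lgals3bp, a secreted glycoprotein (0.92, adjusted p = 0.0294), were also called in KO. In WT the other call was Cmpk2, a mitochondrial nucleotide kinase whose gene neighbours Rsad2 (1.10, adjusted p = 0.0488). The count in KO fell to 2 without KO ND replicate 1 or KO HFD replicate 3, to 3 without KO ND replicate 2 or KO HFD replicate 1, and to 2 with median centring. The count in WT fell to 0 without any 1 of WT ND replicates 2 and 3, WT HFD replicates 1 and 2 and KO HFD replicate 3, and to 1 without KO ND replicates 2 or 3 or KO HFD replicates 1 or 2.

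**Figure D3:**
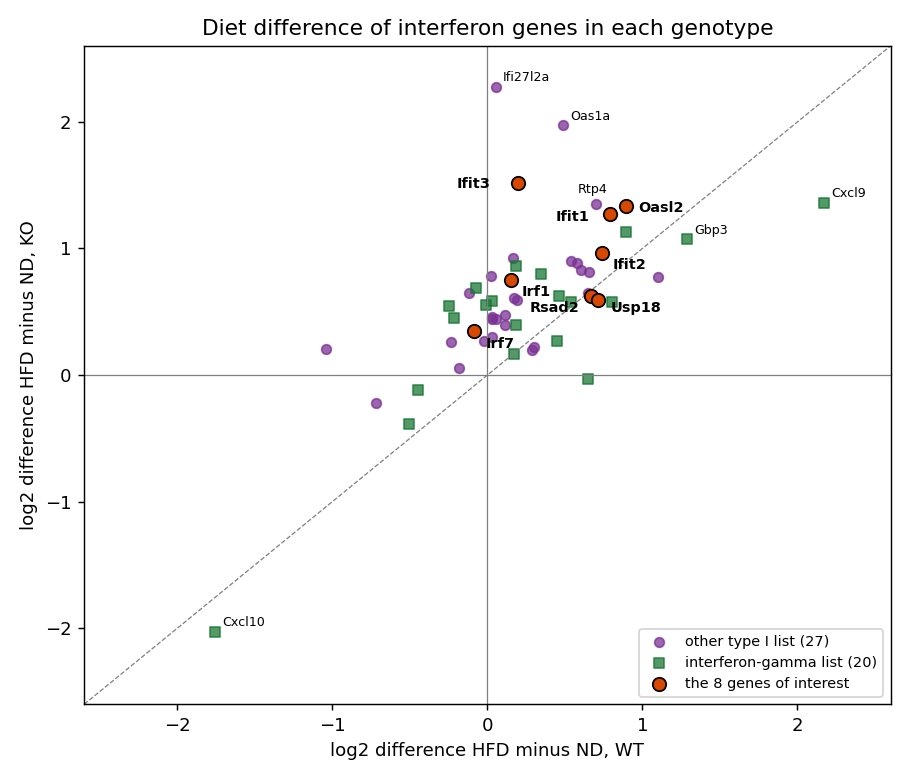
Log2 difference between diets in WT (x axis) and in KO (y axis) of the 8 interferon-stimulated genes, 27 other type I targets and 20 interferon gamma targets; the dashed line marks equal differences, and list genes with a difference over 1.2 either way are named. Of the 8 genes, 7 lie right of 0 and all lie above 0, and Ifi27l2a sits at 0.05 in WT and 2.28 in KO.

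Of 26 genes listed for interferon gamma, 20 were tested, and 5 rose and 0 fell in the average, against 7.49% and 6.19% of all genes. Gbp3, a guanylate-binding protein, rose by 1.18 (SE 0.25, adjusted p = 0.00794, limma). B2m, the light chain of class I antigen presentation, rose by 0.52 (SE 0.13, adjusted p = 0.0169). Gbp2 rose by 0.57 (adjusted p = 0.0202), and Psmb10, an immunoproteasome subunit, by 0.69 (adjusted p = 0.0227). Of the 20 differences, 17 were positive. Cxcl10 went the other way, by -1.89 (SE 0.75, adjusted p = 0.113, limma), and was not called. Nor was Cxcl9, with a difference of 1.77 (SE 0.60, adjusted p = 0.0656). In KO alone B2m (0.86, adjusted p = 0.0205) and Gbp2 (0.80, adjusted p = 0.0446) were called, 2 of 20 against 2.66% of all genes, and in WT alone Gbp3 (1.29, adjusted p = 0.0462), 1 of 20 against 3.07%. The averaged count fell to 2 without WT HFD replicate 2, to 3 without KO ND replicate 1, to 1 with median centring and to 0 with the 3′ over 5′ covariate. In KO it fell to 0 without any 1 of KO ND replicates 1 and 2 and KO HFD replicate 1. In WT it was 1 without WT HFD replicate 3, 2 without WT ND replicate 1, and 0 without any 1 of the other 10 mice.

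Upstream of these targets, 1 of 9 receptors, kinases and signal transducers was called lower in the average, against 6.19% of all genes called lower. The same held for 1 of 12 genes of nucleic acid sensing and its signalling, and 0 of either list were called higher. Of the 9, Jak1 fell by 0.29 on the log2 scale in the average (SE 0.09, adjusted p = 0.0466, limma); the list kept 1 call without WT ND replicate 1, WT HFD replicate 2 or KO HFD replicate 3 and had 0 without any 1 of the other 9 mice. Of the 12, Tbk1, a kinase that activates interferon production and not itself a sensor, fell by 0.55 in the average (SE 0.11, adjusted p = 0.00740). That list had 1 call with each mouse left out in turn. With the 3′ over 5′ covariate both lists had 0 calls in the average. Ddx58, the RNA sensor RIG-I, rose in KO (0.86, SE 0.22, adjusted p = 0.0445), 1 of 12 against 2.66% of all genes, with a difference of -0.21 in WT; the KO count of that list stayed 1 without WT HFD replicates 2 or 3 or KO HFD replicate 2 and was 0 without any 1 of the other 9 mice. Of 7 tested brakes on interferon signalling, 2 fell in the average, against 6.19% of all genes: the phosphatase Ptpn2 (-0.35, adjusted p = 0.0274) and Irf2bp2, a corepressor of Irf2 (-0.49, adjusted p = 0.0358). The member Usp18 is also among the 7. Its difference of 0.66 and that of Pias1 (0.10) were the 2 positive ones, and 0 of the 7 were called higher. The 3 tested enzymes of Isg15 conjugation, of which Usp18 is 1, had 0 calls in the average. Of 7 tested genes of the interferon regulatory factor family, which include Irf1 and Irf7, Irf1 alone was called in the average. That is the same call of Irf1 as given above. Over all genes, 7.49% were called higher and 6.19% lower.

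The interferons themselves were at or near the floor of the arrays. Of 10 listed ligand genes, 6 had a probe set of their own, and 5 of these, Ifng and 4 Ifna genes, were below the filter. Ifnb1, which encodes interferon beta, had group means of 3.93 ± 0.40 in WT ND, 3.75 ± 0.45 in WT HFD, 3.66 ± 0.58 in KO ND and 3.93 ± 0.47 in KO HFD (SD, n = 3), near the filter of 3.78 and with no call between diets (average 0.04, adjusted p = 0.951, limma). Signal at this level does not show that a transcript is absent.

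Markers of other cells in muscle moved with the diet in KO. Of 12 macrophage markers, 10 were tested (Itgam and Aif1 were below the filter), and 3 rose in KO, Adgre1 by 1.11 (adjusted p = 0.00197, limma), Lyz2 by 1.07 (adjusted p = 0.0351) and C1qb by 0.91 (adjusted p = 0.0298), against 2.66% of all genes, and 0 in WT, against 3.07%. Their summed linear signal was 4145 to 6823 in KO HFD, 2776 to 3759 in KO ND, 3959 to 4375 in WT ND and 2393 to 4940 in WT HFD. Of 6 fibroblast markers, 3 rose in KO, Col1a1, Col3a1 and Postn, also against 2.66%, and the summed signal was 10338 to 14031 in KO HFD against 6494 to 9168 in the other groups. The summed signal of 4 adipocyte markers was 4005 to 5972 in KO HFD against 651 to 3914 elsewhere. The part of these cells in the interferon-stimulated signal was not tested.

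All 10 lymphocyte markers with a probe set of their own were below the filter, with a summed linear signal of 44.2 to 94.9 over the 12 mice. Of 5 markers of plasmacytoid dendritic cells, which are strong producers of type I interferon, the defining Siglech was below the filter. Of the 2 tested, Tcf4, which many cells express, was called higher in WT (0.33, adjusted p = 0.0468, limma), against 3.07% of all genes. Of 6 neutrophil markers, 3 were tested and 0 were called in either genotype, with a median diet difference of 0.97 in KO and 0.16 in WT. Csf3r, 1 of the 3, passed the filter only through its signal on high fat diet. In KO its difference was 0.99, with 0.97 for S100a8 and 0.16 for S100a9. Of 6 endothelial markers, the receptor Kdr alone was called higher in WT (1.24, adjusted p = 0.0308, limma), against 3.07% of all genes. In the average 2 of 6 were called higher, Kdr (0.86, adjusted p = 0.0185) and Tek (0.35, adjusted p = 0.0305), against 7.49%. In WT 5 of the 6 differences were positive, and that of Pecam1 was -0.34. The median difference of the endothelial markers was 0.38 in WT, where 4 of 6 did not overlap between diets, against 15.7% of all genes. The part of these cells in the interferon-stimulated signal was not tested either.

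**Figure D4:**
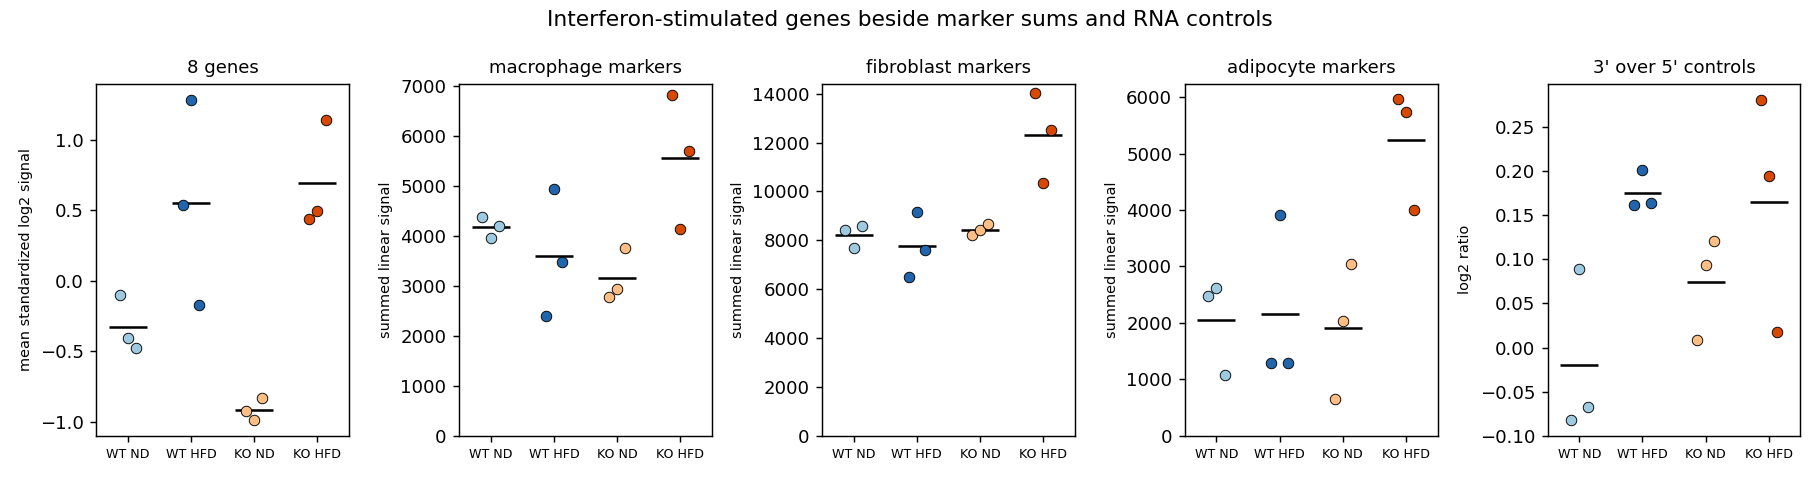
Mean standardized log2 signal of the 8 interferon-stimulated genes, summed linear signal of macrophage, fibroblast and adipocyte markers, and the log2 3′ over 5′ ratio of control probe sets (y axes), per mouse by group (x axes); bars are group means. KO HFD lies highest for the fibroblast sum (10338 to 14031) and the adipocyte sum (4005 to 5972), and the 3 KO ND mice lie lowest for the 8 genes.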

How the data were processed

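The authors deposited log2 signals per probe set, made with MAS5 according to the submitters' processing notes, which name no version. The trimmed mean of the linear signal (2% off each side) was 100.0 on each of the 12 arrays, and nothing was rescaled here. Of 45101 probe sets, 64 controls were removed; 34945 of the rest carried 1 gene symbol, 932 several and 9160 none. Probe sets above a mean of 3.78 (13.8 linear) numbered 22518, and taking the brightest for each symbol gave 11345 genes.

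The groups were compared in limma 3.58.1 (R 4.3.3) in 1 linear model with moderated variances that follow intensity, with 8 residual degrees of freedom, 5.42 prior ones and 7 contrasts. Benjamini-Hochberg adjustment ran within each contrast, calls were made at 0.05, and differences are log2 with their SE. The script was tested on simulated data. Probe sets outside the gene table were tested in a fit over all probe sets.

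The members and lists were chosen with earlier results of these data known. Of each pathway list, the text names every gene past the threshold where at most 4 are, otherwise the 4 with the smallest p, and at most 2 others; of marker lists it names only some defining genes. Sequences are RefSeq promoters on GRCm38.p6. Figures were drawn in Python 3.11.15 with matplotlib 3.10.9.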

Additional observations from a re-analysis of the deposited data

Results flagged for a closer look

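Both results here come from probe sets of the members that the gene-level comparisons do not use. Both were called higher on high fat diet in the average over genotypes, against 5.26% of all probe sets. The other dimmer probe set of Rsad2 did not pass (0.43, adjusted p = 0.349, limma). The probe set annotated to Isg15 and Gm9706 together had a log2 difference of 0.97 (adjusted p = 0.0322 over all probe sets, limma). A dimmer probe set of Rsad2 had a log2 difference of 0.95 (adjusted p = 0.0472), beside 0.65 for the brightest probe set of the gene.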

How the results depend on the processing

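No paired analysis was possible because the groups share no mouse numbers. Members called in the average numbered 5 as reported, 2 with a filter at the 70th percentile, which left out Ifit1, Ifit2, Oasl2, Irf7 and Usp18, 3 with median centring, 3 without the intensity trend, 7 with array weights and 0 with the 3′ over 5′ covariate, and 3 to 6 with each mouse left out. In KO they numbered 2 as reported, 1 without a filter, 1 with quantile normalization, 0 with median centring, 1 over all probe sets, 5 with array weights and 1 with the covariate, and 0 to 3 with each mouse left out. Counts in WT, between genotypes and in the interaction were 0 under every alternative run. The cause was not tested.

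Median centring moved the median KO diet difference of all genes from 0.05 to -0.06, and the averaged calls from 850 higher and 702 lower to 345 and 850; those in KO went from 302 and 213 to 99 and 314, and in WT from 348 and 339 to 144 and 304.

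The differences that turned sign had not passed. In WT, the diet difference of Irf7 was 0.0085 with the offset at the 50th percentile and 0.12 with the covariate, and the interaction of Usp18 was 0.097 with array weights. With each mouse left out, the diet difference of Irf7 ran from -0.55 to 0.49 in WT and from -0.10 to 0.42 in the average, and that of Ifit3 in WT from -0.30 to 0.79. The genotype difference on normal diet ran from -0.22 to 0.17 for Rsad2 and from -0.32 to 0.056 for Ifit1, and on high fat diet from -0.23 to 0.12 for Rsad2, from -0.33 to 0.71 for Irf7 and from -0.00079 to 0.79 for Ifit1. The interaction ran from -0.25 to 0.20 for Rsad2, from -0.15 to 0.89 for Irf7 and from -0.46 to 0.32 for Usp18.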

Other observations

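The genes whose signal was most like that of the 8 members were looked for among all other genes tested, by Pearson's r over the 12 arrays with the mean of the members' standardized log2 signals. This is a description over arrays that share the diet and genotype groups, and the 10 highest of 11345 genes are high by selection. The highest were Sspn (r = 0.961), which encodes sarcospan of the dystrophin complex, Cep112 (r = 0.952) and Retsat (r = 0.942), a retinol saturase. Of the 10 highest, Rtp4 (r = 0.923) was also in the list of type I interferon targets. With group means removed, so that the mice of a group are set against each other, the highest was Dtna (r = 0.919), which encodes dystrobrevin alpha. Retsat (r = 0.893) and Sspn (r = 0.879) were among the 10 highest there too, as was the chemokine gene Ccl8 (r = 0.899).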
